A study of Mus musculus with 2 samples.

Results

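Within the intermediate nuclei of the RNAlater library, the nuclei with the highest ratio of panel A to panel B UMIs were compared with those with the lowest. The compared nuclei number 368, out of 8616 barcodes in the 2 matrices of the series, which hold 5293 different barcodes. They were chosen by their own counts of 19 genes, in 3 steps. Nuclei of the RNAlater matrix needed at least 200 genes, at most 8000 UMIs (unique molecular identifiers, each standing for 1 RNA molecule) and at most 10% mitochondrial UMIs, which 2329 of 3868 barcodes met. Of these, the 554 nuclei with at least 0.6% of their UMIs on a pigment panel (Tyr, Dct, Mlana, Pmel, Mitf, Kcnj13, Slc45a2, Met and Tyrp1) were taken as intermediate nuclei. Each was scored as log2((A + 1)/(B + 1)), where A is the UMIs of Opcml, Spon1, Col5a3, Ptprt and Sema6d, and B those of Chsy3, Pde1c, Gpr158, Bnc2 and Fstl4. The 184 nuclei with the highest scores are called A-high, the 184 with the lowest B-high, and the 186 between them middle nuclei.

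Intermediate cells are the melanocyte-like cells of the stria vascularis, the epithelium in the lateral wall of the cochlea. They derive from the neural crest, carry melanin, and lie between the marginal cells that face the endolymph and the basal cells on the side of the spiral ligament. Their inwardly rectifying potassium channel Kcnj10 (Kir4.1) is needed for the endocochlear potential, the voltage that drives current through hair cells.

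The series holds 1 MethFix library, whose nuclei were isolated first and then methanol-fixed, and 1 RNAlater library, whose nuclei were isolated from preserved tissue. Both are from stria vascularis of CBA/J mice at postnatal day 30 with no other treatment or allele named. Mice were pooled, 5 for MethFix and 6 for RNAlater by the study's methods, while the labels give between 5 and 6 for MethFix and 10 for RNAlater. Nuclei of 1 library are not replicates, so no p-value is given here, and intervals are exact 95% intervals that cover counting error only. Of the barcodes, 3323 occur in both matrices, among them 552 of the 554 intermediate nuclei, and 1425 occur only in the MethFix matrix. The shared barcodes were taken to hold the same molecules in both matrices and were not used as a second sample. Which preparation or mouse pool these 552 nuclei came from cannot be told, so RNAlater names the matrix here. The only nuclei outside the ranking are the MethFix-only ones, of which 492 met the same limits and pigment share. They were ranked anew, with 164 at each end, a median of 3089 UMIs at the A-high and 2720 at the B-high end. These 492 nuclei also held more marginal cell marker UMIs, 2354 CPM (UMIs of a gene or list scaled to a total of 1000000), against 452 CPM in the 527 RNAlater intermediate nuclei with at least 10 panel UMIs. A stricter set of 253 MethFix-only nuclei with at most 0.1% marginal marker UMIs, added after seeing the data, had 84 nuclei at each end.

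The pigment share, which chose the intermediate nuclei and is given as a description, had a median of 2.99% in the 554 nuclei (0.610% to 5.78%). In the 1775 other nuclei its median was 0.0867% and its highest value 0.592%. Near the limit of 0.6%, 18 intermediate nuclei lay at or below 1%, and 107 other nuclei lay at or above 0.3%. For 27 of the 554 nuclei the data went against the name. These had fewer than 10 UMIs over panels A and B together, a median pigment share of 0.873% and a median of 1407 UMIs. Their basal cell markers stood at 3489 CPM and their marginal cell markers at 2243 CPM, against 203 CPM and 452 CPM in the other 527. Of the 27, 7 were A-high, 17 middle and 3 B-high nuclei.

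The scores formed 1 range and not 2 separate groups, so the ends are named here by their rank and not as cell types. A-high scores ran from 0.21 to 2.32 (median 0.70), with the nearest nucleus outside at 0.20. B-high scores ran from -3.75 to -0.74 (median -1.33), with the nearest nucleus outside at -0.72. Scores between -1 and 1 were held by 359 nuclei (64.8%). Most nuclei carried both panels. In 488 of the 554 (88.1%), A and B each had at least 10 UMIs, while 2 nuclei had at least 10 for A only and 36 for B only. A-high nuclei held a mean of 51.1 UMIs of A and 29.3 of B, middle nuclei 28.2 and 33.5, and B-high nuclei 16.2 and 45.8. These counts chose the groups and are given as a description.

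**Figure D1:**
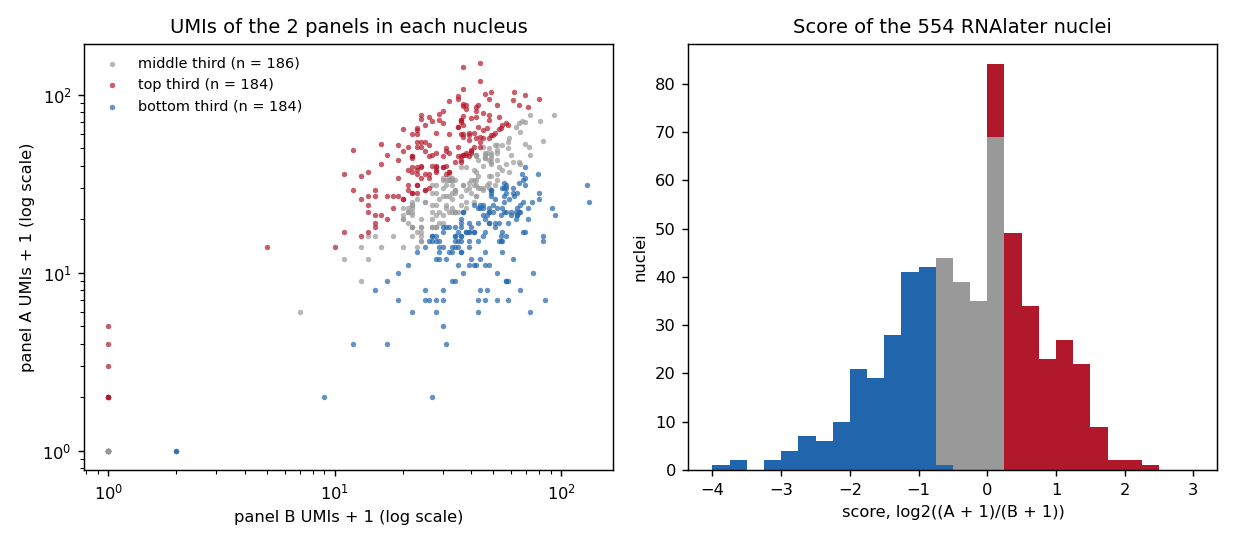
UMIs of panel A against panel B in each of the 554 intermediate nuclei of the RNAlater library on log axes (left), and the number of nuclei by score (right), coloured by A-high (top, red), middle (grey) and B-high (bottom, blue) nuclei. The nuclei form 1 cloud with no gap at either boundary, and the few nuclei at the lower left have almost no UMI of either panel.

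Depth and quality differed little between the ends. The median was 5555 UMIs and 2362 genes in A-high nuclei and 5372.5 UMIs and 2350 genes in B-high nuclei. After each nucleus was thinned to 1000 UMIs, which left out 1 A-high and no B-high nucleus, the median was 663 genes in both. The pigment share had a median of 3.02% and 3.05%, and the mitochondrial share of 0.336% and 0.362%, in A-high and B-high nuclei.

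Of the markers of other cells, those of marginal, basal, fibrocyte and spindle cells were lower at both ends than in the other nuclei of the library, and those of Schwann cells and of endothelial cells and pericytes were higher. The 8 marginal cell markers summed to 475 CPM in A-high and 470 CPM in B-high nuclei (6475 CPM in other nuclei), and the 8 basal cell markers to 255 CPM and 199 CPM (1823 CPM in other nuclei). The 7 Schwann cell markers summed to 845 CPM and 807 CPM (314 CPM in other nuclei), with 489 and 492 of the 853 and 790 UMIs from Cdh19. The 8 endothelial and pericyte markers stood at 146 CPM in A-high and 71.5 CPM in B-high nuclei (62.8 CPM in other nuclei), and 127 of the 147 and 62 of the 70 UMIs were of Cspg4. The 8 fibrocyte and bone markers stood at 48.5 CPM and 25.5 CPM (321 CPM in other nuclei). The 8 spindle and root markers stood at 18.8 CPM in A-high and 34.7 CPM in B-high nuclei (541 CPM in other nuclei). Of their 19 and 34 UMIs, 11 and 20 were of Anxa1 and 5 and 7 of Dpp10, while Lgr5 and Kcnj16 were at 0 at both ends. The part of these cells in the gene differences was not tested. An alternative without the tenth of nuclei with most markers of other cells, Schwann cells not counted, is given below.

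Each panel gene was next ranked without itself, so that its level did not enter its own score. All 10 genes then kept the direction of their panel in the RNAlater nuclei, at a smaller size. The 2 panels were chosen on these nuclei, so this is a description and not support for the panels. Opcml (ENSMUSG00000062257.12, chromosome 9 from 27790775 to 28925410, plus strand of GRCm38), an adhesion protein anchored to the membrane, went from 1132 CPM in B-high to 4729 CPM in A-high nuclei when it was part of the score, a log2 ratio of 2.06. Ranked by the other 9 genes it had 3301 UMIs in A-high and 1992 in B-high nuclei, a log2 ratio of 0.81 (0.73 to 0.89). Col5a3, a fibrillar collagen chain, gave 0.84 (0.71 to 0.98) on 1252 and 723 UMIs. Spon1, which encodes the secreted matrix protein F-spondin, gave 0.59 (0.45 to 0.73). Sema6d, a membrane-bound semaphorin, gave 0.47 (0.29 to 0.66), and Ptprt, a receptor tyrosine phosphatase, gave 0.45 (0.31 to 0.60).

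The 5 genes of panel B lay between -0.53 and -0.13. Chsy3, a chondroitin sulfate synthase, gave -0.53 (-0.66 to -0.39) on 736 UMIs in A-high and 1050 in B-high nuclei. Gpr158, an orphan G protein-coupled receptor, gave -0.49 (-0.66 to -0.32), and Pde1c, a phosphodiesterase stimulated by calcium and calmodulin, gave -0.30 (-0.38 to -0.23). The zinc finger gene Bnc2 gave -0.21 (-0.30 to -0.12). For Fstl4, a follistatin-like gene, the value was -0.13 and its interval included 0 (-0.30 to 0.05).

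In the MethFix-only nuclei, 9 of the 10 panel genes kept their direction when ranked without themselves. Col5a3 gave 0.87 (0.62 to 1.11), Spon1 0.81 (0.55 to 1.08) and Opcml 0.77 (0.62 to 0.92), close to or above the RNAlater values. Chsy3 gave -0.77 (-1.05 to -0.49) and Pde1c -0.43 (-0.59 to -0.28). Bnc2 had the opposite sign there, 0.10, with an interval that included 0 (-0.08 to 0.27), and Fstl4 gave -0.08 (-0.46 to 0.30). In the stricter set, 9 of the 10 again had the direction of their panel, with smaller values for most genes of panel A. There Col5a3 gave 0.97 (0.63 to 1.32) and Opcml 0.44 (0.23 to 0.65), but Spon1 gave 0.27 (-0.10 to 0.63), Sema6d 0.17 (-0.28 to 0.62) and Ptprt 0.10 (-0.28 to 0.48), with intervals that included 0. Of panel B, Chsy3 gave -0.94, Gpr158 -0.76, Pde1c -0.75 and Bnc2 -0.10 in this set, and Fstl4 had the opposite sign, 0.22 (-0.30 to 0.74).

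**Figure D2:**
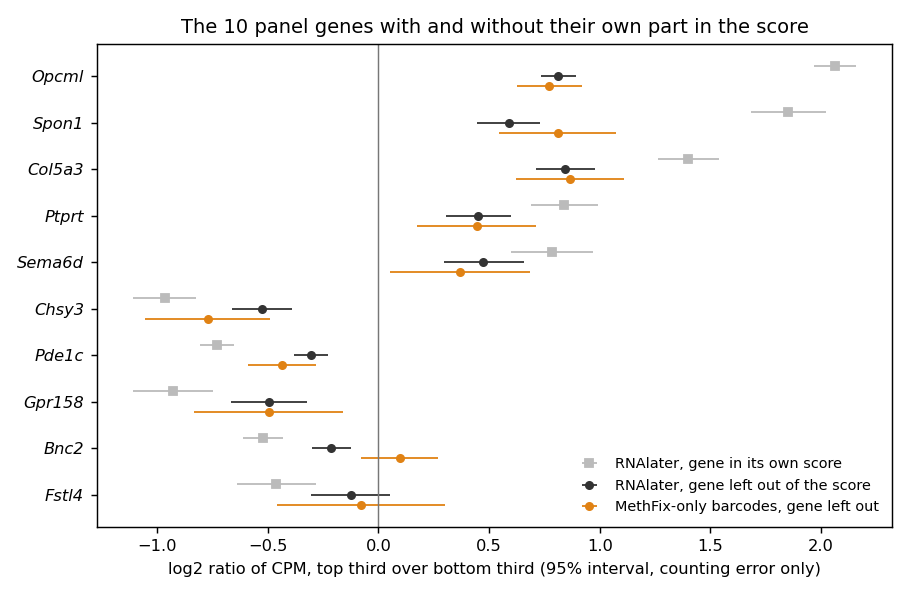
Log2 ratio of CPM of the A-high (top) over the B-high (bottom) nuclei for each panel gene, with 95% intervals for counting error: in RNAlater with the gene in its own score (grey squares), in RNAlater with the gene left out (black) and in MethFix-only barcodes with the gene left out (orange). All 10 black points lie on the side of their panel, between 0.45 and 0.84 for panel A and between -0.53 and -0.13 for panel B. The panels were chosen on the RNAlater nuclei, so the black points are a description.

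Across nuclei the 2 panels were close to uncorrelated. Spearman's rho between A and B as shares of UMIs was -0.02 over the 554 nuclei and -0.18 over the 527 with at least 10 panel UMIs. Within these 527, single genes of panel A correlated with each other by a median of 0.11, with the highest value for Opcml with Col5a3 (0.33), and genes of panel B by a median of 0.06. Of the 25 pairs of an A gene with a B gene, 18 were below 0 in these 527, with a median of -0.03 and the lowest for Col5a3 with Pde1c (-0.24). Over all 554 nuclei most of the 25 pairs were above 0. There 6 were below 0, with a median of 0.06 and the lowest again for Col5a3 with Pde1c (-0.09). The points share 1 library and differ in depth, and the counts are sparse, so these values describe the nuclei only. Ranked by A alone, B stood at 6516 CPM in the A-richest and 7111 CPM in the A-poorest 184 nuclei, a log2 ratio of -0.13. Ranked by B alone, A differed by -0.25 in the same sense. In the MethFix-only nuclei these values had the opposite sign, 0.95 and 1.39, in a set that also held the marginal marker UMIs given above.

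The largest sources of variation among all other genes were also set beside the score. Over the 527 nuclei, the first principal component of the genes outside the panels followed depth (absolute rho of 0.65 with UMIs, 0.03 with the score). The second component held 0.650% of the variance and had an absolute rho of 0.68 with the score and 0.02 with UMIs. Its leading genes were Taf1d, Rlbp1 and Car2 on the A side and B3galt1, Mgll and St6galnac3 on the B side. Over all 554 nuclei the relation was spread over later components, as the second had an absolute rho of 0.03 with the score, the third of 0.42 and the fourth of 0.58. The panels were chosen on these nuclei, and the cut to 527 after seeing the data. These values are therefore a description and not separate support for the ranking.

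Outside the rule, 3525 genes had at least 100 UMIs over both ends together, and most hardly differed. Their log2 ratios had a median of -0.03 (quartiles -0.19 and 0.13), and 95.3% of the genes lay within 1.5-fold. At least 2-fold higher in A-high nuclei were 15 genes, 0.426% of those tested, and 9 were at least 2-fold higher in B-high nuclei, 0.255%, in all 0.681%. With CPM averaged over nuclei in place of summed counts, the numbers were 16 and 5. Without the 27 nuclei with few panel UMIs, they were 13 and 11, with 11 and 9 of the same genes, and Cacnb2 (0.69), Sned1 (-0.46), Cdh1 (0.99) and Fam162a (0.96) were no longer called. When the 1 nucleus with most UMIs of a gene was left out of the higher end, 10 and 5 of the same genes passed 2-fold, and apart from Sned1 those that did not lay between 0.95 and 0.99 or between -0.96 and -0.90. With the score taken from nuclei thinned to 1000 UMIs, 6 and 4 of the same genes were called, and Car2 (0.69), Camkk2 (0.80), Rlbp1 (0.86) and Mgll (-0.69) were among those that were not. With 1 panel gene at a time left out of the score, between 8 and 13 of the 15 and between 2 and 8 of the 9 genes were called again. With the limit on the pigment share at 0.3%, 7 of the 15 and 5 of the 9 were. These genes come from the same nuclei that were ranked, so the counts describe the ranking and are not independent support for it.

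**Figure D3:**
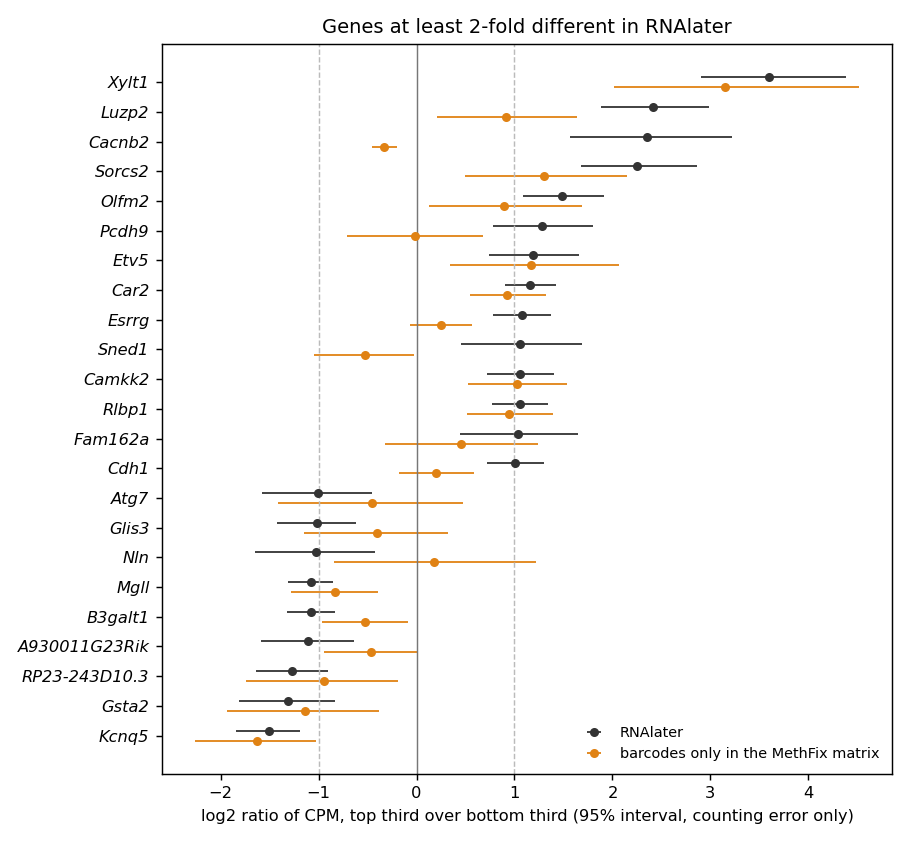
Log2 ratio of CPM, A-high (top) over B-high (bottom), for 23 of the 24 genes that differed by at least 2-fold in RNAlater nuclei (black), and the ratios of the same genes in MethFix-only nuclei ranked anew (orange), with 95% intervals for counting error. The dashed lines mark a 2-fold difference, and the orange points of Cacnb2, Pcdh9, Sned1 and Nln lie on the other side of 0 from the black ones.

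Xylt1 (ENSMUSG00000030657.11) differed most. It encodes the xylosyltransferase that starts the sugar chains of proteoglycans, and lies on chromosome 7 from 117380979 to 117673580 on the plus strand of GRCm38. It had 225 UMIs in A-high, 59 in middle and 18 in B-high nuclei, which is 223 CPM, 62.4 CPM and 18.4 CPM, and stood at 12.5 CPM in the other nuclei of the library. The B-high level (10.9 CPM to 29.1 CPM) overlapped that of the other nuclei (10.1 CPM to 15.2 CPM), while the A-high level was 12.1 times the B-high one (log2 ratio 3.60, 2.91 to 4.38). Over sixths of the ranking, Xylt1 went from 299 CPM in the highest to 14.2 CPM in the lowest, with a lower value at each step. In the MethFix-only nuclei it had 61 UMIs in A-high and 7 in B-high nuclei, a log2 ratio of 3.14 (2.02 to 4.52), and in the stricter set 2.70.

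Other genes of glycosaminoglycan synthesis were set beside Xylt1, since Chsy3 of panel B acts in the same pathway. Of 28 genes on this list, 6 could be tested and 1 was called (Xylt1), where 0.426% of all tested genes were A-high. Of the 6, 3 lay above 0 and 3 below, with a median of 0.31, against -0.03 over all genes. Chst11, a chondroitin sulfotransferase, had 452 UMIs in A-high and 285 in B-high nuclei (0.62, 0.40 to 0.84). Csgalnact1, which starts chondroitin sulfate chains, gave 0.63 (0.11 to 1.16) on 83 and 52 UMIs. Ext1 and Ext2, which extend heparan sulfate, gave 0.00 (-0.20 to 0.19) and -0.12 (-0.66 to 0.43). The MethFix-only values of Chst11 and Csgalnact1 were 0.29 and 0.58.

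Luzp2, a leucine zipper gene, and Sorcs2, a sorting receptor of the VPS10 family, followed. Luzp2 had 187 UMIs in A-high, 89 in middle and 34 in B-high nuclei (2.42, 1.88 to 2.99), and 0.91 (0.21 to 1.64) in MethFix-only nuclei. Sorcs2 had 147, 72 and 30 UMIs (2.25, 1.67 to 2.87), and 1.30 (0.50 to 2.15) in MethFix-only nuclei. For both genes the middle nuclei lay between the ends. Olfm2, a secreted olfactomedin protein, had 194, 90 and 67 UMIs (1.49, 1.08 to 1.91), with 0.89 in MethFix-only nuclei and 0.15 (-0.91 to 1.22) in the stricter set. Etv5, an ETS transcription factor, had 139 UMIs in A-high nuclei but 55 in middle and 59 in B-high nuclei (1.19, 0.74 to 1.66), so that only the A-high end stood apart, and gave 1.17 (0.34 to 2.06) in MethFix-only nuclei.

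Carbonic anhydrase, a retinoid-binding protein and a kinase were among the A-high genes with most UMIs. Car2, carbonic anhydrase 2, had 405 UMIs in A-high, 250 in middle and 176 in B-high nuclei (1.16, 0.90 to 1.42), and 0.93 (0.54 to 1.32) in MethFix-only nuclei. Rlbp1, a retinaldehyde-binding protein known from the retina, had 321, 192 and 150 UMIs (1.05, 0.77 to 1.34), and 0.95 (0.51 to 1.39) in MethFix-only nuclei. Camkk2, a kinase activated by calcium and calmodulin, had 225, 144 and 105 UMIs (1.06, 0.72 to 1.40), and 1.02 (0.52 to 1.54) in MethFix-only nuclei. All 3 intervals excluded 0 in both sets of nuclei. Fam162a had 76, 66 and 36 UMIs (1.03, 0.44 to 1.65), and 0.45 in MethFix-only nuclei.

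Cdh1 and Esrrg had ratios nearer to 0 in MethFix-only nuclei. Cdh1, E-cadherin, had 309, 240 and 149 UMIs (1.01, 0.72 to 1.30), and 0.20 (-0.18 to 0.58) in MethFix-only nuclei, but 0.79 (0.15 to 1.46) in the stricter set. It stood at 507 CPM in the other RNAlater nuclei. Esrrg, an orphan nuclear receptor, had 310, 197 and 143 UMIs (1.07, 0.78 to 1.37), with 0.25 (-0.07 to 0.57) in MethFix-only nuclei and 0.10 in the stricter set, and stood at 482 CPM in the other RNAlater nuclei. Of 16 cadherins and protocadherins, 3 could be tested and 2 were called (Cdh1 and Pcdh9), against 0.426% A-high among all tested genes, and Cdh2, N-cadherin, gave 0.36 (0.14 to 0.58).

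Cacnb2 and Sned1 had most of their A-high UMIs in 1 nucleus each. Of the 84 A-high UMIs of Cacnb2, a calcium channel subunit, 57.1% were in 1 nucleus. Its log2 ratio was 2.35 with that nucleus and 1.13 without it, and it stood at 4785 CPM in the other nuclei of the library. Under the 30 alternatives the ratio of Cacnb2 ran from 0.13 to 3.39, with 19 values inside its interval and 11 outside. Some of the 19 come from alternatives that could not change a ratio, such as another UMI minimum. The ratio of Cacnb2 was below 2-fold with the score thinned to 1000 UMIs (0.70) and at a pigment share of 0.3% (0.57). Of the 73 A-high UMIs of Sned1, a matrix protein gene, 61.6% were in 1 nucleus, and its ratio went from 1.06 to -0.32 without it. For Pcdh9, a protocadherin, 18.6% were in 1 nucleus, and the ratio went from 1.28 to 0.99. In the MethFix-only nuclei these were the 3 A-high genes with a ratio below 0, at -0.33 for Cacnb2, -0.53 for Sned1 and -0.02 for Pcdh9.

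Among the B-high genes, Kcnq5 (ENSMUSG00000028033.16) led. It encodes a voltage-gated potassium channel of the M-current family and lies on chromosome 1 from 21398403 to 21961942 on the minus strand of GRCm38. It had 108 UMIs in A-high, 115 in middle and 298 in B-high nuclei, or 107 CPM, 122 CPM and 304 CPM, against 67.1 CPM in other nuclei (log2 ratio -1.51, -1.84 to -1.19). Here the middle nuclei lay at the level of the A-high end. In the MethFix-only nuclei it had 31 UMIs in A-high and 97 in B-high nuclei (-1.62, -2.26 to -1.03), and in the stricter set -2.74. Of its B-high UMIs, 11.7% were in 1 nucleus, and without it the value was -1.33. The spindle and root markers, which moved the same way, stood at 34.7 CPM in B-high and 18.8 CPM in A-high nuclei on 34 and 19 UMIs, most of them of Anxa1, and their part in this value was not tested.

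A second potassium channel, Kcnj13 (Kir7.1, ENSMUSG00000079436.3), moved the same way. It belongs to the pigment panel that chose the intermediate nuclei but not to the ranking, and lies on chromosome 1 from 87386363 to 87394729 on the minus strand. It had 142 UMIs in A-high, 180 in middle and 278 in B-high nuclei, which is 141 CPM (118 to 166), 191 CPM and 284 CPM (252 to 319), a log2 ratio of -1.01 (-1.32 to -0.72). Over sixths of the ranking it went from 104 CPM to 337 CPM, with a higher value at each step towards the B-high end. In the MethFix-only nuclei the difference was larger, 34 against 123 UMIs (-1.83, -2.43 to -1.28), and in the stricter set -2.34 (-3.29 to -1.50). Kcnj13 lies within Gigyf2 on the opposite strand, and Gigyf2 had 236 and 283 UMIs (-0.31).

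The other pigment genes differed little by rank, and the panel as a whole summed to 30106 CPM in A-high and 30347 CPM in B-high nuclei. Dct, the melanin enzyme with most UMIs, had 19153 in A-high and 19067 in B-high nuclei (-0.04, -0.07 to -0.01). Tyr, tyrosinase, had 5582 and 4660 UMIs (0.22, 0.16 to 0.27), with 0.49 (0.38 to 0.61) in MethFix-only nuclei. Slc45a2 gave 0.15 (0.01 to 0.29) and Mlana 0.33 (-0.16 to 0.82). Mitf, the transcription factor of the melanocyte lineage, gave -0.17 (-0.27 to -0.07), and the receptor kinase Met -0.13 (-0.20 to -0.06). Pmel had 0 and 2 UMIs, and Tyrp1 had 0 at both ends, with upper limits of 3.65 CPM in A-high and 3.77 CPM in B-high nuclei.

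Of the other potassium channels and transporters of the endocochlear potential, the few that could be tested stayed closer to 0. Of 20 potassium channel genes on a list without Kcnj13, 4 could be tested and Kcnq5 was the 1 called, against 0.255% B-high among all tested genes. Kcnj10 had 1174 UMIs in A-high, 957 in middle and 1018 in B-high nuclei (0.16, 0.04 to 0.28), and 0.45 in MethFix-only nuclei. Kcnq1 gave -0.18 (-0.75 to 0.39) and Kcnma1 -0.15 (-0.62 to 0.31). None of the 7 tested genes of sodium-potassium ATPase, chloride and calcium transport was called, with a median of 0.03. Among all tested genes 0.681% were called in either direction, so with 7 tested the lack of a call does not set these genes apart. Of the 7, Atp1b1, a sodium-potassium ATPase subunit, had 3231 and 2431 UMIs (0.37, 0.29 to 0.44), with 0.29 in MethFix-only nuclei. The chloride cotransporter gene Slc12a2 gave 0.03 (-0.05 to 0.12).

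**Figure D4:**
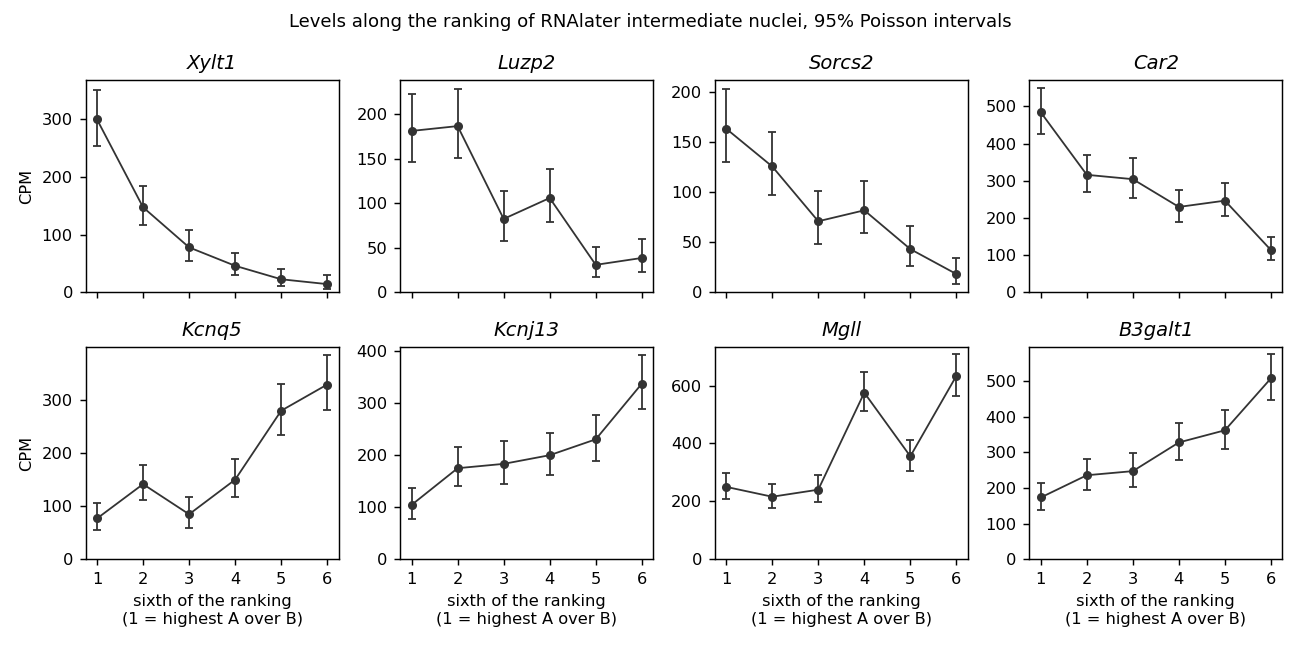
CPM of 4 genes of the A-high end (upper row) and 4 of the B-high end (lower row) over sixths of the ranking, from the highest ratio of panel A to B (1) to the lowest (6), each of 92 or 93 RNAlater nuclei, with exact 95% Poisson intervals. Xylt1 went from 299 to 14.2 CPM and Kcnj13 from 104 to 337 CPM, with the values between them in order, while Mgll was higher in the fourth sixth than in the fifth. Kcnj13 belongs to the pigment panel and was left out of the calls.

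Mgll and B3galt1 were the B-high genes with most UMIs. Mgll, monoacylglycerol lipase, had 237 UMIs in A-high, 393 in middle and 485 in B-high nuclei (-1.08, -1.31 to -0.85), and -0.83 (-1.28 to -0.39) in MethFix-only nuclei. Along the ranking its values were not in order, as the fourth sixth stood at 575 CPM and the fifth at 356 CPM. B3galt1, a galactosyltransferase of glycan chains, had 208, 272 and 426 UMIs (-1.08, -1.32 to -0.84), and -0.53 (-0.97 to -0.09) in MethFix-only nuclei. B3galt1 was lower with each sixth towards the A-high end.

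The remaining B-high genes had fewer UMIs. Gsta2, a glutathione S-transferase, had 51, 97 and 123 UMIs (-1.31, -1.81 to -0.83), and -1.13 (-1.93 to -0.38) in MethFix-only nuclei. This gene has closely similar copies, which may affect how many of its reads were counted. RP23-243D10.3, annotated as a lincRNA, had 90, 174 and 210 UMIs (-1.27, -1.64 to -0.90), and -0.95 in MethFix-only nuclei. It overlaps the start of Tnrc6a on the same strand, which had 91 and 102 UMIs (-0.21). A930011G23Rik had 58, 122 and 121 UMIs (-1.11, -1.58 to -0.64), with -0.47 in MethFix-only nuclei. It stood at 579 CPM in the other RNAlater nuclei, above the 124 CPM of the B-high end. Along the ranking it was highest in the third sixth, at 169 CPM, against 130 CPM in the last sixth at the B-high end. Under the alternatives, 29 of its values stayed within its interval. The 1 outside was -0.20, with Pde1c left out of the score. For these 3 genes the middle nuclei were nearer to the B-high end. Glis3, a zinc finger transcription factor, gave -1.02 (-1.42 to -0.62), Atg7, an enzyme of autophagy, -1.01 (-1.58 to -0.46), and the peptidase Nln -1.02 (-1.64 to -0.43). In MethFix-only nuclei Glis3 gave -0.41, Atg7 -0.45 and Nln 0.18, each with an interval that included 0.

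Taken over the MethFix-only nuclei, 12 of the 15 A-high genes and 8 of the 9 B-high genes had the same direction. Of all genes with a value there, 45.5% were above 0 and 54.5% below 0. At least 2-fold in the same direction were 4 of the 15 (Xylt1, Sorcs2, Etv5 and Camkk2) and 2 of the 9 (Kcnq5 and Gsta2), against 0.539% and 0.511% of all genes. In the stricter set the numbers in the same direction were again 12 and 8, with 40.0% of all genes above 0 and 60.0% below. The A-high genes at or below 0 there were Pcdh9 (-0.83), Sned1 (-0.52) and Fam162a (-0.02), and the B-high gene above 0 was again Nln (0.24). Values of Cacnb2 (0.16) and Esrrg (0.10) were also near 0, while Luzp2 (1.93) and Etv5 (1.50) were further from 0 than in all MethFix-only nuclei. Of the B-high genes, RP23-243D10.3 (-1.80), A930011G23Rik (-1.61), Atg7 (-1.34) and Gsta2 (-1.32) were at least 2-fold different in this set besides Kcnq5. Atg7 had only 6 UMIs in A-high and 15 in B-high nuclei there, with an interval that included 0. Differences of this size were also more common among all genes in the stricter set. There 5.82% of all genes were at least 2-fold higher in B-high nuclei, and 2.53% in A-high nuclei. Over all MethFix-only nuclei the median ratio was 0.89 for the 15 and -0.53 for the 9.

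No gene of the melanosome outside the rule was called, where 0.681% of all tested genes were called in either direction. With 7 tested, the lack of a call does not set these genes apart. Of 12 melanin and melanosome genes outside the rule, 7 could be tested, 6 of them below 0, with a median of -0.41, while 54.7% of all tested genes were below 0, with a median of -0.03. Rab38 (-0.61, -1.02 to -0.20) and Rab27a (-0.51, -0.88 to -0.15), both small GTPases, Mlph (-0.47) and the motor gene Myo5a (-0.41, -0.56 to -0.26) act in making or moving melanosomes. Bace2, a protease of the melanosome, gave -0.06 (-0.29 to 0.18), and the melanosome receptor Gpr143 gave -0.36 (-0.72 to 0.01). In MethFix-only nuclei Myo5a gave -0.34 and Mlph -0.08, while Rab38 gave 0.78 and Rab27a 0.34, on the other side of 0. None of the 7 tested regulators of melanocytes and neural crest was called (median -0.09), against the same 0.681%. Sox6 and Sox5, with the most UMIs among them together with Pax3, gave 0.12 (-0.01 to 0.25) and 0.05 (-0.08 to 0.18). Sox10 gave -0.23 (-0.40 to -0.05), Pax3 -0.30 (-0.43 to -0.18) and the endothelin receptor Ednrb -0.37 (-0.59 to -0.16), with 0.28, 0.03 and -0.36 in MethFix-only nuclei.

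The nuclear receptors held 1 call among 8 tested genes (Esrrg), against 0.681% called in either direction among all tested genes. Rorb gave 0.39 (0.20 to 0.58), the mineralocorticoid receptor Nr3c2 0.37 (0.14 to 0.60) and Rora -0.17 (-0.26 to -0.09). Neither cyclic nucleotide enzymes (9 tested, median -0.04) nor Wnt and growth factor genes (8 tested, median -0.02) nor axon guidance genes (7 tested, median -0.12) nor junction genes (7 tested, median -0.10) held a call. With 0.681% of all tested genes called, the lack of a call in these and the shorter lists below does not set them apart. Adcy2, an adenylate cyclase, had 539 and 719 UMIs (-0.46, -0.62 to -0.30). Nlgn1, a synaptic adhesion gene, had 376 and 600 UMIs (-0.72, -0.91 to -0.53) but 0.06 in MethFix-only nuclei. Schwann cell and glial genes (4 tested) had a median of 0.04, calcium channel subunits 1 call of 2 tested (Cacnb2, against the same 0.681%), and matrix genes, glutamate and GABA receptors, and stress genes no call among 2, 1 and 2 tested. All 7 tested mitochondrial genes lay above 0 (median 0.33), while the median mitochondrial share of a nucleus was not higher in A-high nuclei, and mt-Nd1 gave 0.40 in RNAlater but -0.33 in MethFix-only nuclei.

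Promoters of 3 named genes are shown, from 250 bases before to 50 after the RefSeq start (GRCm38.p6). Luzp2 was called A-high and the potassium channel gene Kcnq5 B-high. The third, Kcnj13, was higher in B-high nuclei but belongs to the pigment panel, so it was left out of the calls. In this order the promoters lie at chr7:54834995-54835294 on the plus strand, chr1:21962601-21962900 on the minus strand (1 of 2 starts listed) and chr1:87394680-87394979 on the minus strand. Capitals mark CACGTG or, read on both strands, CACATG, motifs that MITF is known to bind.
Luzp2: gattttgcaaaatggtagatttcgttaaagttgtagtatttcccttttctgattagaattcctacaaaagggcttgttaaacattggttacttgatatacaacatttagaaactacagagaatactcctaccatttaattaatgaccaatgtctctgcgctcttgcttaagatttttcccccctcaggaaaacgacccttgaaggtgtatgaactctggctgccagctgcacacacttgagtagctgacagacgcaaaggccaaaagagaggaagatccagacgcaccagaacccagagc
Kcnq5: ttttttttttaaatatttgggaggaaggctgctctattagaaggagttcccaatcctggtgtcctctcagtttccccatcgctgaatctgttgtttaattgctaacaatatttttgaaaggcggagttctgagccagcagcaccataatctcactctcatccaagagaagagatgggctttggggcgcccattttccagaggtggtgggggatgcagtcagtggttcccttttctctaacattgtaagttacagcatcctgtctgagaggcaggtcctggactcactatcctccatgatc
Kcnj13: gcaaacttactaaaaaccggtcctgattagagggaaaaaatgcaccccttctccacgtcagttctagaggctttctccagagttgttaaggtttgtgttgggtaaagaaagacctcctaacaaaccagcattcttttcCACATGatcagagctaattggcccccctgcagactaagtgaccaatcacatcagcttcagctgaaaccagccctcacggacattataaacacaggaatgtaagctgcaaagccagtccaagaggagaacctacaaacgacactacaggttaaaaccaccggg
The Kcnj13 promoter held 1 CACATG and the other two held neither motif. Of 32851 promoters of this length, 7.15% held CACGTG and 14.2% CACATG. Counted by gene, CACGTG was present for 2187 and CACATG for 4293 of 27025 genes. Of the A-high genes, 10 of 15 had promoters in the table, with CACGTG in 0 genes and CACATG in 1. Of the B-high genes, 7 of 9 did, with CACGTG in 3 and CACATG in 1. A match says only that the letters are present.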

How the data were processed

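Nuclei were captured on the 10x Genomics platform. The authors deposited raw UMI counts per gene and barcode for each library, made by Cell Ranger 3.0.1 against GRCm38 without normalization, with 17681824 UMIs in RNAlater (506 to 41153 per barcode) and 21027671 in MethFix (501 to 134970). Scanpy 1.4.5 is named in the submitters' processing notes. The counts were read with Python 3.11.15, numpy 2.4.6, scipy 1.17.1 and pandas 2.3.3. The members, the gene lists and the alternatives were chosen with earlier results of these data known, and the 2 panels were chosen on these nuclei.

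UMIs were summed over the nuclei of each end and divided by their total, 1009617 for A-high and 979171 for B-high nuclei, to give CPM. The log2 ratio has an exact conditional (Clopper-Pearson) interval and levels have exact Poisson intervals. The 19 genes of the rule were left out, and genes needed at least 100 UMIs over both ends. A gene was called at 2-fold or more. Ties in the ranking were broken by barcode. No doublets were removed in the rule. By the rule for named genes, the called genes of each direction were ordered by the interval bound nearest to 0 and the first 12 taken, with the panel genes and, for each list, the called members and up to 4 with most UMIs. Camkk2, Sned1, Fam162a, Rab38, Mlph, the other pigment genes, the genes of the principal component and the overlapping genes were named after their values were seen. The values of 1 called gene and 1 list member are not reported here. Scrublet (scanpy 1.11.5) and TMM factors (edgeR 4.0.16, R 4.3.3) served as alternatives. The ratio and its interval were tested on simulated Poisson counts of the 2 summed ends. These held no spread between nuclei, so the test does not cover genes with many of their UMIs in 1 nucleus. Coordinates are from GENCODE M21 on GRCm38, and 29 alternatives were planned and 3 added after seeing the data.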

Additional observations from a re-analysis of the deposited data

How the results depend on the processing

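The counts of genes at least 2-fold different (15 A-high and 9 B-high) moved most with the limits themselves. A minimum of 50 UMIs gave 41 and 37 genes, 200 UMIs gave 8 and 5, and a fold of 1.5 gave 83 and 82. With the score taken from nuclei thinned to 1000 UMIs, 7 and 5 genes were called, 6 and 4 of them the same as before. With CPM averaged over nuclei, 5 genes were B-high, all among the 9. A pigment share of 0.3% gave 24 and 11 genes, 7 and 5 of them the same, no upper UMI limit 22 and 10 (11 and 4 the same), and the whole MethFix matrix 8 and 7 (7 and 5 the same). Scores without Col5a3 or Chsy3 gave 23 and 9 A-high genes, 13 and 8 of them the same. The score without Opcml gave 17 and 5 genes, 8 and 3 of them the same, and that without Pde1c 13 and 6, 10 and 2 of them the same. Leaving out the nucleus with most UMIs of each gene left 10 A-high and 5 B-high genes. Without the 27 nuclei of fewer than 10 panel UMIs, 13 and 11 genes were called, 11 and 9 of them the same. Leaving out the tenth of nuclei with most markers of other cells gave 11 and 11 genes, 11 and 9 of them the same. Scrublet marked 18 of 2329 nuclei, 6 of them intermediate nuclei, of which none were A-high and 3 were B-high. Without the marked nuclei 13 and 9 genes were called, 12 and 8 of them the same. TMM moved all log2 ratios by 0.02.

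Of the 15 A-high and 9 B-high genes, 20 had the same direction in MethFix-only nuclei. With the thinned score it was 12 of the 7 and 5 genes called. A minimum of 50 UMIs gave 57 of the 41 and 37, and a minimum of 200 UMIs gave 13 of the 8 and 5. A fold of 1.5 gave 114 of the 83 and 82. Leaving out the highest nucleus of each gene gave 13 of the 10 and 5. The numbers called differ, so these counts are not comparable by themselves. The share over all genes was taken at the reported limits only, 45.5% above 0 and 54.5% below 0.

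Of 750 log2 ratios of the 24 genes and Kcnj13 under 30 alternatives, 702 stayed within the interval of the reported value, 40 moved outside it, 11 of them of Cacnb2, and 8 changed sign. All 8 were of Sned1, at -0.53 ranked by shares, -0.41 at a pigment share of 1%, -0.16 in the whole MethFix matrix, -0.47 without the tenth of nuclei with most markers of other cells, -0.57 without Sema6d and -1.37 without Pde1c in the score, -0.46 without the nuclei of few panel UMIs and -0.32 without its highest nucleus. The cause was not tested. The 702 include values that could not change. Another UMI minimum or fold limit alters only which genes are called. Keeping or leaving out tied nuclei, or keeping only barcodes in both matrices, left the same nuclei at both ends. TMM moved every ratio by the same 0.02. The 702 therefore overstate how stable the ratios were. No paired analysis was possible because both ends come from 1 library. Genes under 100 UMIs were not compared.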
